A study of Mus musculus with 42 samples.

Results

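The 10 genes described here encode the enzymes of hepatic de novo lipogenesis, the synthesis of fatty acids from carbohydrate, together with lipid-associated genes that are regulated with them and the transcription factor ChREBP. They were taken by symbol as Mlxipl, Acly, Acaca, Acacb, Fasn, Elovl6, Scd1, Me1, Thrsp and Pnpla3 from a table of 54446 genes, and all 10 were among the 15574 genes that passed the filter on low counts. Their transcripts were measured by poly(A)-selected, strand-specific RNA sequencing of whole liver from 42 mice. All mice were female and carried the human APOE*3-Leiden transgene, which slows the clearance of lipoprotein remnants so that plasma cholesterol follows the diet. The Chow32w group (10 mice) was kept on a maintenance diet as a healthy reference, the WTD32w group (16 mice) received a Western-type diet (WTD), and the WTD&Atorvastatin32w group (16 mice) received the same diet with the HMG-CoA reductase inhibitor atorvastatin mixed in. The WTD held 15% cocoa butter, 40.5% sucrose and 1% cholesterol by weight and was started at 8 to 14 weeks of age, with a run-in of 3 weeks before baseline. Atorvastatin was given from baseline at 3.0 mg/kg/day and from week 5 at 4.5 mg/kg/day. From week 22 the diet of both WTD groups also contained 0.05% sodium cholate, and livers were taken at week 32. The chow group thus differed from the WTD groups in fat, sucrose, cholesterol and cholate at once, and the labels give neither the age of the chow-fed mice nor the hour or the feeding state at which the livers were taken.

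De novo lipogenesis starts from citrate that leaves the mitochondria and is split to acetyl-CoA in the cytosol. Acetyl-CoA is carboxylated to malonyl-CoA, condensed to palmitate with NADPH as reductant, and then elongated and desaturated to the fatty acids found in hepatic triglycerides. In liver, transcription of these genes is driven jointly by SREBP-1c, which responds to insulin and to oxysterols, and by ChREBP, which responds to glucose and fructose metabolites and binds DNA together with its partner Mlx.

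Libraries held 15661381 to 36224054 counted read pairs, with medians of 20405093.5 in chow, 21095129 in WTD and 18180048.5 in atorvastatin-treated mice. Levels are given as CPM, counts scaled to a library of 1000000 after normalization by trimmed means of M-values (TMM), and a gene is called higher or lower where edgeR's quasi-likelihood test gave a Benjamini-Hochberg adjusted p below 0.01 over all 15574 genes. Ratios of genes and correlations were tested by permutation and pass at an adjusted p below 0.05. Of the 42 libraries, 9 (3 chow, 5 WTD and 1 atorvastatin) had no count for more than 20% of the genes that average 1 to 2 CPM in their group, and the counts of calls below are also given without them. The tissue label was checked with marker lists. Hepatocyte markers summed to a median of 152315 CPM in chow, 84657 CPM in WTD and 127772 CPM in atorvastatin-treated mice, and 14 of 14 tested were lower on WTD than on chow. Macrophage markers summed to medians of 522, 3101 and 2189 CPM in the same order, and 9 of 12 were higher on WTD than on chow. Of the adipocyte markers, Adipoq, Lep, Plin1, Retn and Cfd did not pass the filter on low counts. The list also held Cidec, Fabp4, Lipe, Slc2a4 and Pck1, whose values are not given here, so this check is partial. Since the samples are whole liver, fewer hepatocytes and less RNA per hepatocyte cannot be told apart for any gene below.

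The promoters of the genes were read from RefSeq (GRCm38.p6) to show which short elements lie directly before the starts of genes that moved together. Windows of 250 bases before a RefSeq start were found for 9 of the 10 genes, 11 windows in all. Both strands were searched for the E-box CACGTG, the SRE-like element TCACNCCAC, the NF-Y box CCAAT and the Sp1 box GGGCGG. The longer element that ChREBP binds was not searched. The 4 windows printed are those of the regulator Mlxipl, of the first enzyme Acly, of Fasn, and of Pnpla3, the gene with the largest change under atorvastatin. Sequences run 5′ to 3′ along the gene's strand and end at the base before the start, and capitals mark E-boxes, NF-Y boxes and Sp1 boxes on either strand (ATTGG and CCGCCC are reverse matches).
Mlxipl, chr5:135089640-135089889, plus strand: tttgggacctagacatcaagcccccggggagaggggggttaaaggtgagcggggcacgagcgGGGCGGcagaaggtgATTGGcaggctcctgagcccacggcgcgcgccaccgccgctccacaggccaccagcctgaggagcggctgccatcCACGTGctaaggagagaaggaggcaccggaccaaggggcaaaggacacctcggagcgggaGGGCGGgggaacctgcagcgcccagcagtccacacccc
Acly, chr11:100528001-100528250, minus strand: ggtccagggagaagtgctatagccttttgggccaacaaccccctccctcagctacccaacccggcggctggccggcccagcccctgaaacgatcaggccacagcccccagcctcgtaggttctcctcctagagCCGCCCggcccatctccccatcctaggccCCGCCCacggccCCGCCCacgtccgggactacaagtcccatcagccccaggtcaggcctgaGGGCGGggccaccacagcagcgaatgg
Fasn, chr11:120824548-120824797, minus strand: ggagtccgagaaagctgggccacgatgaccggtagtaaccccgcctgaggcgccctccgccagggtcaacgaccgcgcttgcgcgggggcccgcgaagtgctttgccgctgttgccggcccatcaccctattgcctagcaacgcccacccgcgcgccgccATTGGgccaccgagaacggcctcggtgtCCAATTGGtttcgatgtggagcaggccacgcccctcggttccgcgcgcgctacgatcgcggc
Pnpla3, chr15:84167566-84167815, plus strand: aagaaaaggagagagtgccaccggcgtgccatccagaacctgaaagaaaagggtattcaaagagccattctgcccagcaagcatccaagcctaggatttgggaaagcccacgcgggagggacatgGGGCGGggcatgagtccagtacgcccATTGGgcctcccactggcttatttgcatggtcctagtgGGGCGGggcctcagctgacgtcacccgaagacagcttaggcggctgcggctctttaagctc
The Mlxipl window held the only E-box among the 9 genes, from 98 to 93 bases before the start, together with an NF-Y box and 2 Sp1 boxes. Acly had 4 Sp1 boxes. Fasn had 3 NF-Y box matches, of which the last 2 overlap in the palindrome CCAATTGG. Pnpla3 had 1 NF-Y box and 2 Sp1 boxes. Some windows lie inside the annotated gene, before an internal RefSeq start. They are the only windows of Acaca and Acacb and 1 window each of Mlxipl and Me1. Over the 11 windows of the 9 genes, NF-Y boxes were found in 6 windows, those inside Acacb and Me1 among them, and Sp1 boxes in 4. This stands against 33.8% and 32.7% of the 32851 mouse promoter windows of the same length, while an E-box is found in 6.02% of them. An SRE-like element was found in a second, downstream RefSeq window of Mlxipl and in 1.05% of all windows. These matches describe the letters within 250 bases and do not show binding.

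The question of the first comparison was how the WTD changed the lipogenic program relative to chow. Of the 10 genes, 1 was called higher (Scd1), 1 lower (Mlxipl) and 8 were not called, against 33.5% of all tested genes called in this comparison (17.5% higher and 16.0% lower). The desaturase and the carbohydrate-responsive regulator thus moved in opposite directions, and the differences of the other 8 genes did not pass the test. The median log2 fold change of the 10 genes was 0.28, against 0.03 for all tested genes. Without the 9 libraries named above the counts were again 1 higher and 1 lower. DESeq2 called 3 higher and 1 lower, where it called 21.5% of all genes higher and 15.2% lower. Scaling to hepatocyte markers, which moved the median of all genes to 0.90, gave 8 higher and 0 lower with a 10-gene median 0.21 above that of all genes. Under that scaling 64.7% of all tested genes were called higher and 1.74% lower.

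The second comparison asked what atorvastatin added to the WTD. Here 8 of 10 genes were called higher and 0 lower, against 4.84% of all tested genes called higher and 7.1% called in either direction. All 10 fold changes were positive, with a median of 1.09 on the log2 scale against 0.00157 for all genes. The genes not called were Thrsp and Scd1. Without the 9 libraries 5 genes remained called (Mlxipl, Acly, Acacb, Me1 and Pnpla3), and the adjusted p of Acaca, Fasn and Elovl6 rose to 0.0196, 0.0353 and 0.0229 (edgeR), with all 10 fold changes still positive. Scaled to hepatocyte markers, which moved the median of all genes to -0.44, 4 genes were called higher (Acly, Acacb, Me1 and Pnpla3), 9 fold changes were positive (all but that of Scd1) and the median of the 10 lay 1.04 above that of all genes, of which 0.437% were called higher and 32.2% lower.

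Relative to chow, atorvastatin-treated mice had 8 of the 10 genes called higher, Mlxipl called lower and Thrsp not called, against 14.2% of all tested genes called higher and 10.7% lower (25.0% in all). The median log2 fold change was 1.53. This comparison shares its mice with the other two, so the 3 sets of values are given side by side and not as independent evidence. Without the 9 libraries 7 genes were called higher and 1 lower, as Acacb no longer passed (edgeR adjusted p = 0.0173).

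**Figure D1:**
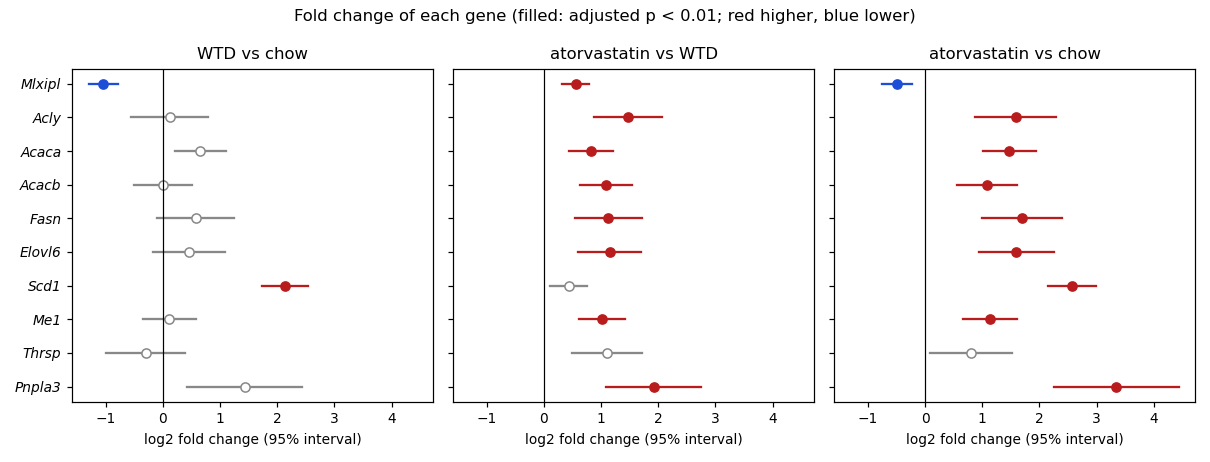
Log2 fold change of each of the 10 genes (points) with its 95% interval (lines) in the 3 comparisons, from edgeR; filled points have an adjusted p below 0.01, red higher and blue lower. Scd1 (2.14) and Mlxipl (-1.04) are the filled points on WTD against chow, whereas 8 of 10 points are filled and all 10 lie to the right of 0 for atorvastatin against WTD.

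Mlxipl (ENSMUSG00000005373, chromosome 5, 135089890 to 135138382, plus strand) encodes ChREBP. Its level was 671, 775 and 1067 CPM (lowest, median and highest) in chow-fed mice, 314, 379 and 704 CPM in WTD-fed mice and 362, 601 and 819 CPM in atorvastatin-treated mice. Of the 16 WTD-fed mice, 15 lay below the lowest chow-fed mouse, and the atorvastatin-treated mice spread from the WTD range into the chow range. Mlxipl fell by 1.04 on the log2 scale on WTD (SE 0.13, 0.486-fold, edgeR adjusted p = 3.7e-09), was higher by 0.56 with atorvastatin than on WTD alone (SE 0.12, adjusted p = 0.00069) and stayed lower than on chow by a log2 difference of -0.49 (SE 0.13, adjusted p = 0.0026). It was the only one of the 10 genes that was lower than on chow in both WTD groups at this threshold. Hepatocyte markers moved the same way, lower on WTD (median log2 fold change -0.86 over 14 genes, all 14 called lower) and higher with atorvastatin (0.29, 7 called higher). When counts were scaled to the summed hepatocyte markers, the median of all genes shifted to 0.90 on WTD against chow, and Mlxipl lay 1.10 below that median (log2 difference -1.10 relative to it) with a fold change of -0.20 that was not called (adjusted p = 0.0715). The same scaling ended the other Mlxipl calls, with 0.07 for atorvastatin against WTD (adjusted p = 0.50) and -0.13 for atorvastatin against chow (adjusted p = 0.31).

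Of 17 partners and co-regulators of ChREBP and SREBP-1c, 3 were called higher and 4 lower on WTD, near the 17.5% and 16.0% of all tested genes, with medians of -0.11 for the list and 0.03 for all genes. With atorvastatin 2 were called higher and 0 lower, against 4.84% and 2.26% of all tested genes. Srebf1, which encodes SREBP-1, averaged 268 CPM in chow, 532 CPM in WTD and 713 CPM in atorvastatin-treated mice, and rose by 0.99 (SE 0.17, edgeR adjusted p = 3.6e-06) on WTD. With atorvastatin its further log2 difference was 0.42 (SE 0.14), which was not called (adjusted p = 0.038). Scap, the escort protein that carries SREBPs to the Golgi, fell by 1.05 (SE 0.13, adjusted p = 2.4e-09) and then rose by 0.67 (SE 0.11, adjusted p = 7.5e-05). Mlx, the DNA-binding partner of ChREBP, was not called in any comparison, with fold changes of 0.12, 0.08 and 0.21.

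Since Mlxipl and Srebf1 encode the 2 regulators of the program, the log2 ratio of their CPM was compared between groups. It was 1.65 ± 0.39 (SD, n = 10) in chow, -0.37 ± 0.29 (n = 16) in WTD and -0.26 ± 0.26 (n = 16) in atorvastatin-treated mice. The lowest chow value was 0.98 and the highest values in the WTD groups were 0.24 and 0.29, so neither WTD group overlapped chow. The difference from chow was -2.02 (SE 0.14) on WTD and -1.91 (SE 0.14) with atorvastatin (2-sided permutation tests over mice, p = 1e-05 for each, the smallest that 100000 permutations can give, and 3e-05 after adjustment over 9 ratio tests). With and without atorvastatin the ratio differed by 0.11 (SE 0.10, adjusted p = 0.25 by the same test), which was not detectable against the spread between mice.

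**Figure D2:**
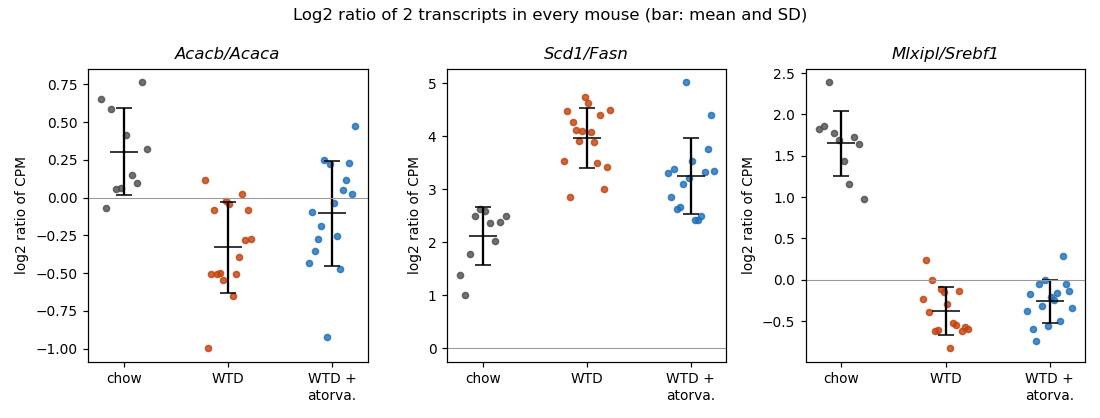
Log2 ratio of the CPM of 2 genes in each mouse (points), with the group mean and SD (black), for Acacb/Acaca, Scd1/Fasn and Mlxipl/Srebf1. The Mlxipl/Srebf1 ratio lies at or above 0.98 in all 10 chow-fed mice and at or below 0.29 in all 32 WTD-fed mice, with or without atorvastatin.

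Acly (ENSMUSG00000020917, chromosome 11, 100476353 to 100528000, minus strand) encodes ATP citrate lyase, which releases cytosolic acetyl-CoA from citrate. Levels were 185, 250 and 401 CPM (lowest, median and highest) in chow, 84.4, 264 and 924 CPM in WTD and 193, 642 and 1968 CPM in atorvastatin-treated mice. The WTD range extended beyond the chow range on both sides, with 3 mice above and 5 below it. Acly did not differ detectably on WTD (log2 fold change 0.12, 95% interval -0.56 to 0.79) and rose by 1.47 with atorvastatin (SE 0.30, 2.77-fold, edgeR adjusted p = 0.0006), with 15 of 16 treated mice above the WTD median. The small difference on WTD depended on 1 mouse, since it turned to -0.10 without WTD replicate 3.

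Of 16 other genes that supply citrate, acetyl-CoA and NADPH, 4 were called higher and 6 lower on WTD (17.5% and 16.0% of all tested genes), and 4 higher and 0 lower with atorvastatin (4.84% and 2.26% of all tested genes). Acss2, the cytosolic enzyme that makes acetyl-CoA from acetate, averaged 487 CPM in chow, 145 CPM in WTD and 441 CPM in atorvastatin-treated mice. It fell by 1.75 (SE 0.30, edgeR adjusted p = 5e-06) on WTD and rose by 1.60 (SE 0.27, adjusted p = 7.8e-05) with atorvastatin. All 16 WTD-fed mice lay below the chow range, and the share of all tested genes that separated downward was not counted. G6pdx, the entry enzyme of the pentose phosphate pathway and an NADPH source, rose by 2.04 on WTD (SE 0.26, adjusted p = 6.3e-09), with a log2 difference of 0.05 between the WTD groups (adjusted p = 0.93). Mpc2, a subunit of the mitochondrial pyruvate carrier, fell by 0.87 on WTD (SE 0.10, adjusted p = 1.1e-10) and had a log2 difference of 0.17 with atorvastatin (adjusted p = 0.22).

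Acaca (ENSMUSG00000020532, chromosome 11, 84129672 to 84401651, plus strand) encodes the cytosolic acetyl-CoA carboxylase whose malonyl-CoA feeds fatty acid synthesis. It was measured at 80.2, 111 and 126 CPM in chow, 78.0, 169 and 367 CPM in WTD and 93.7, 266 and 560 CPM in atorvastatin-treated mice. Of the WTD-fed mice 13 of 16 lay above the highest chow-fed mouse and 1 below the lowest. The log2 fold change on WTD of 0.65 (SE 0.22) missed the threshold (edgeR adjusted p = 0.014) and passed in 6 of 15 alternatives. These were DESeq2 (0.69, adjusted p = 0.0039), RLE scaling (0.0085), a minimum of 10 counts per mouse (0.0057), a fit without robust estimation (0.0076), only the 2 groups compared (0.0030) and hepatocyte scaling (1.7e-08). Under hepatocyte scaling Acaca lay 0.61 above the median of all genes, against 0.63 in the main fit. It was not called without the 9 libraries (edgeR adjusted p = 0.035) or with limma-voom (adjusted p = 0.035), among others. Atorvastatin raised Acaca by a further 0.82 (SE 0.19, edgeR adjusted p = 0.0024). Compared to chow, the treated mice were higher by 1.47 (SE 0.23, adjusted p = 1.6e-06).

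Acacb (ENSMUSG00000042010, chromosome 5, 114146535 to 114250761, plus strand) encodes the carboxylase of the mitochondrial outer membrane, whose malonyl-CoA inhibits the uptake of fatty acids for oxidation. Levels were 87.9, 131 and 197 CPM in chow, 65.1, 122 and 258 CPM in WTD and 49.4, 288 and 493 CPM in atorvastatin-treated mice. The chow range lay within the WTD range, and the fold change on WTD was 0.00098 on the log2 scale, with a 95% interval from -0.51 to 0.51. Atorvastatin raised Acacb 2.12-fold (log2 1.08, SE 0.22, edgeR adjusted p = 0.00069), and 9 of 16 treated mice exceeded the highest WTD value.

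The 2 carboxylases therefore shifted against each other on the WTD. The log2 ratio of Acacb to Acaca was 0.30 ± 0.29 (SD, n = 10) in chow, -0.33 ± 0.30 (n = 16) in WTD and -0.10 ± 0.35 (n = 16) in atorvastatin-treated mice. The drop of 0.63 (difference -0.63, SE 0.12) on WTD passed the permutation test (2-sided, adjusted p = 4.5e-05 over 9 ratio tests), as did the difference of -0.41 between atorvastatin and chow (adjusted p = 0.006). The difference of 0.22 between the WTD groups did not (adjusted p = 0.071).

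Fasn (ENSMUSG00000025153, chromosome 11, 120805846 to 120824547, minus strand) encodes fatty acid synthase, which builds palmitate. Levels were 476, 694 and 1160 CPM in chow, 319, 884 and 3114 CPM in WTD and 311, 1897 and 4582 CPM in atorvastatin-treated mice. The 3 groups overlapped, with the lowest treated mouse below every chow-fed mouse and 14 of 16 above the chow range. Fasn had a log2 fold change of 0.57 on WTD (SE 0.33, edgeR adjusted p = 0.16) and rose by 1.13 with atorvastatin (SE 0.29, 2.18-fold, adjusted p = 0.006). The latter call lay near the threshold and was lost when any 1 of 9 mice was left out (adjusted p up to 0.0136). Against chow the rise was 1.70 (SE 0.35, adjusted p = 0.00014).

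Elovl6 (ENSMUSG00000041220, chromosome 3, 129532355 to 129638495, plus strand) encodes the elongase that extends palmitate to stearate. It was measured at 89.3, 111 and 180 CPM in chow, 52.0, 129 and 490 CPM in WTD and 90.0, 260 and 808 CPM in atorvastatin-treated mice. The values resembled those of Fasn, with a log2 fold change of 0.45 on WTD (SE 0.31, edgeR adjusted p = 0.25), a rise of 1.15 with atorvastatin (SE 0.27, adjusted p = 0.0031) and 14 of 16 treated mice above the chow range.

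Scd1 (ENSMUSG00000037071, chromosome 19, 44394455 to 44407879, minus strand) encodes stearoyl-CoA desaturase, which turns stearate into oleate, and had the highest level per kilobase of exon of the 10 genes in every group. Its level was 1709, 2991 and 6086 CPM in chow, 8533, 15278 and 22546 CPM in WTD and 10137, 18726 and 29037 CPM in atorvastatin-treated mice. The lowest WTD-fed mouse exceeded the highest chow-fed mouse, a separation seen for 3.4% of all tested genes in the upward direction. Scd1 rose by 2.14 on WTD (SE 0.20, 4.40-fold, edgeR adjusted p = 7e-12) and by 2.57 with atorvastatin relative to chow (SE 0.21, 5.94-fold, adjusted p = 2e-13), where the groups did not overlap either, as for 2.88% of all tested genes. Between the WTD groups the log2 difference was 0.43 (SE 0.16), with an adjusted p of 0.072 and 13 of 16 treated mice above the WTD median. It was called with limma-voom (0.47, SE 0.14, adjusted p = 0.0088), which called all 10 genes higher in this comparison and 11.7% of all tested genes. Scaled to hepatocyte markers this difference turned to -0.05, or 0.39 above the median of all genes, which that scaling moved to -0.44.

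Scd1 thus separated from the synthase that acts before it. The log2 ratio of Scd1 to Fasn was 2.12 ± 0.56 (SD, n = 10) in chow, 3.96 ± 0.57 (n = 16) in WTD and 3.24 ± 0.72 (n = 16) in atorvastatin-treated mice, and the lowest WTD value (2.86) lay above the highest chow value (2.63). The ratio was higher by 1.84 (SE 0.23) on WTD than on chow (2-sided permutation test, adjusted p = 3e-05), and atorvastatin lowered it (difference -0.72, SE 0.23, adjusted p = 0.006). The latter missed the threshold without the 9 libraries (-0.58, adjusted p = 0.052). Summed over the 10 genes, TMM-scaled CPM averaged 5929 (SD 1772) in chow, 17292 (SD 5351) in WTD and 25338 (SD 8294) in atorvastatin-treated mice. Without Scd1 the sum of the other 9 averaged 2602 (SD 512), 2640 (SD 1429) and 5566 (SD 2740) CPM in the same order.

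Of 14 paralogs and related enzymes, 11 could be tested. On WTD 4 were called higher and 3 lower, where 33.5% of all tested genes were called, and with atorvastatin 2 higher and 0 lower, where 7.1% were called. Scd2, a desaturase paralog that is weakly expressed in healthy adult liver, rose from 12.7 CPM in chow to 92.7 CPM in WTD (log2 fold change 2.86, SE 0.17, edgeR adjusted p = 1.9e-18) and averaged 70.5 CPM with atorvastatin (log2 difference -0.40, adjusted p = 0.035). Scd2 and Scd1 are closely related in sequence, and reads that could not be placed in 1 gene are not in the counts. Mlycd, malonyl-CoA decarboxylase, which removes the product of the carboxylases, fell by 0.68 on WTD (SE 0.11, adjusted p = 4.3e-07) and had a log2 difference of 0.11 with atorvastatin (adjusted p = 0.53). Elovl2, an elongase of polyunsaturated fatty acids, was at 0.02 on WTD (adjusted p = 0.91) and rose by 0.51 with atorvastatin (SE 0.12, adjusted p = 0.0022).

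Me1 (ENSMUSG00000032418, chromosome 9, 86581371 to 86695953, minus strand) encodes cytosolic malic enzyme, which regenerates NADPH for the synthase. Levels were 118, 162 and 219 CPM in chow, 92.9, 159 and 378 CPM in WTD and 107, 308 and 655 CPM in atorvastatin-treated mice. The medians of chow and WTD nearly coincided and the log2 fold change was 0.11 (95% interval -0.34 to 0.57). Atorvastatin raised Me1 2.02-fold (log2 1.02, SE 0.20, edgeR adjusted p = 0.00042), with 14 of 16 treated mice above and 1 below the chow range.

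Thrsp (ENSMUSG00000035686, chromosome 7, 97412938 to 97417730, minus strand) encodes Spot 14, a small protein induced by thyroid hormone and carbohydrate in lipogenic tissues. Its level was 105, 208 and 418 CPM in chow, 64.6, 135 and 538 CPM in WTD and 63.0, 311 and 750 CPM in atorvastatin-treated mice. Only 4 of 16 WTD-fed mice lay above the chow median, but the log2 fold change of -0.30 (SE 0.34) was not called (edgeR adjusted p = 0.50). With atorvastatin the difference of 1.10 (SE 0.30) was as large as that of Acacb and Fasn and missed the threshold narrowly (adjusted p = 0.0111). It passed in 5 of 15 alternatives: DESeq2, limma-voom, a minimum of 10 counts per mouse, a fit without robust estimation and the clock score as covariate. It also passed when any 1 of 9 mice was left out (lowest adjusted p = 0.002). Among the settings where it did not pass, the edgeR adjusted p was 0.020 with only the 2 groups compared and 0.022 with the share of missed low genes as covariate. It was 0.060 with hepatocyte scaling and 0.068 without the 9 libraries.

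Pnpla3 (ENSMUSG00000041653, chromosome 15, 84167837 to 84187236, plus strand) encodes a lipid droplet protein of the patatin-like phospholipase family and had the lowest level per kilobase of exon of the 10 genes in chow and in WTD. It was measured at 0.0, 4.57 and 8.67 CPM (lowest, median and highest) in chow, 1.28, 9.76 and 27.4 CPM in WTD and 6.82, 35.8 and 123 CPM in atorvastatin-treated mice. The chow-fed mouse with 0 counts (replicate 5, of 21850293 counted pairs) was 1 of the 9 libraries with many missing low genes, at 43.1%. Chow replicate 4, at 0.853 CPM, was not among those libraries, at 4.31%. Of the treated mice 14 of 16 lay above the chow range. The log2 fold change on WTD of 1.43 (SE 0.50) was not called (edgeR adjusted p = 0.018), the rise with atorvastatin was 1.92 (SE 0.41, 3.78-fold, adjusted p = 0.0012) and that relative to chow 3.35 (SE 0.54, 10.2-fold, adjusted p = 3.8e-06). With limma-voom the difference from chow was not called (3.19, SE 1.15, adjusted p = 0.022), and that on WTD was called with DESeq2 and with no robust estimation (adjusted p = 0.0054 and 0.0093). In the annotation 6.78% of its exon bases are shared on the same strand with the noncoding gene Gm49513. Reads within them count for neither gene, so its level is uncertain, and the share of reads lost was not measured.

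**Figure D3:**
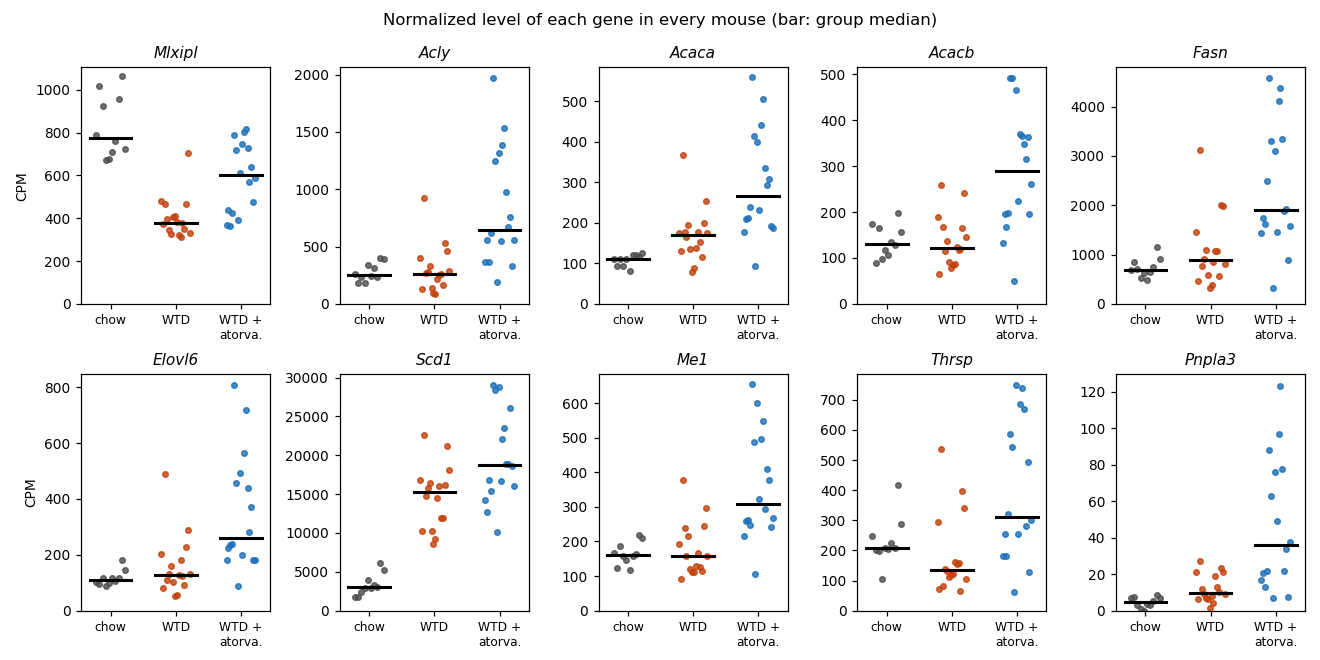
CPM of each of the 10 genes (panels, linear axes from 0) in every mouse (points), with the group median as a bar, for 10 chow-fed, 16 WTD-fed and 16 atorvastatin-treated mice. Scd1 is the gene whose WTD points all lie above the chow points (lowest 8533 against highest 6086 CPM), whereas the points of most other genes fan out upward in the atorvastatin group.

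Levels were ordered between genes per kilobase of summed exon length. In chow-fed mice the order was Scd1 (680 CPM per kb, SD 286), Mlxipl (150, SD 26.7), Thrsp (105, SD 36.8), Fasn (66.9, SD 18.3), Acly (52.7, SD 14.9), Me1 (42.9, SD 8.46), Elovl6 (18.2, SD 4.25), Acacb (14.2, SD 3.72), Acaca (6.32, SD 0.862) and Pnpla3 (2.98, SD 1.90). Acly lay within 1 SD of Fasn and Me1 within 1 SD of Acly. Scd1 stood apart in every group (2995, SD 836, in WTD and 4042, SD 1212, in atorvastatin-treated mice). In atorvastatin-treated mice the means after Scd1 were 218 CPM per kb for Fasn (SD 117), 184 for Thrsp (SD 106), 158 for Acly (SD 97.1) and 107 for Mlxipl (SD 29.7). Mlxipl, above Acly in chow, had a lower mean here but lay within the SD of Acly. The means of Fasn, Thrsp and Acly also lay within 1 SD of each other. All genes were measured in the same mice, so these SDs do not decide their order within a mouse, which was not tested. The exon length of Acaca is summed over many alternative exons (17074 bases), which lowers its value on this scale.

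The mice of a group differed widely from each other in these genes. The SD of log2 CPM between mice had a median over the 10 genes of 0.38 in chow, 0.71 in WTD and 0.86 in atorvastatin-treated mice, against 0.22, 0.22 and 0.19 for the 3407 genes with a mean of at least 1000 counts. Of the 10 genes, 9 lay above that median in chow and 10 in each WTD group. Between the lowest and the highest mouse of the atorvastatin group, Pnpla3 differed 18.1-fold, Fasn 14.8-fold, Thrsp 11.9-fold and Acly 10.2-fold. Scd1 differed 2.86-fold and Mlxipl 2.26-fold in the same mice.

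The spread was shared between genes, as the same mice were high or low for most of them. In the WTD group replicate 3 was the highest of 16 mice for 9 of 10 genes, and replicate 8 was the lowest for 5 and among the lowest 3 for 8. In the atorvastatin group replicate 5 was the highest for 6 genes and among the highest 3 for 9, whereas replicate 7 was the lowest for 9 and among the lowest 3 for all 10. Replicate 9 of the chow group was the highest of 10 mice for 9 genes.

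**Figure D4:**
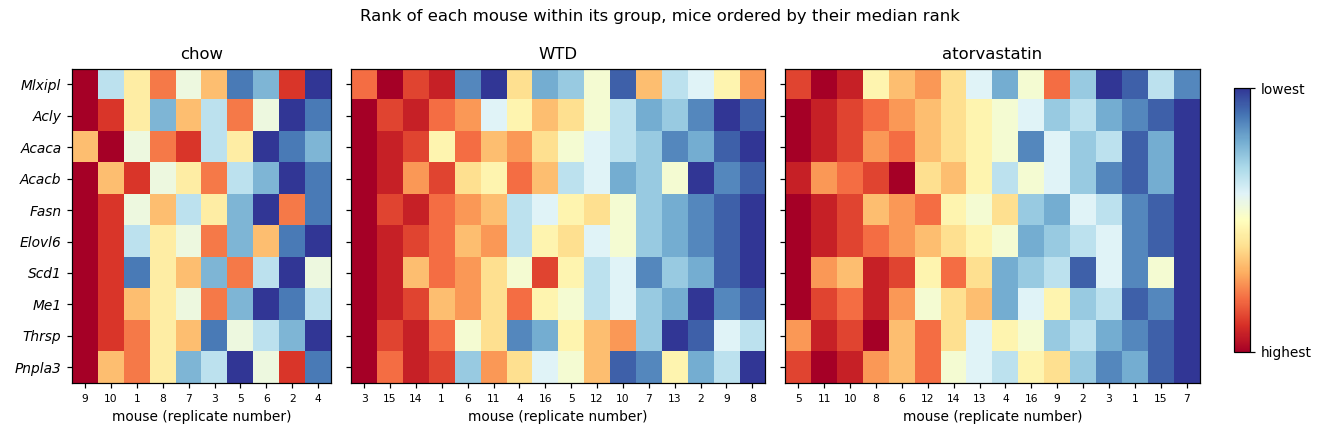
Rank of each mouse within its group (color, red highest and blue lowest) for each of the 10 genes (rows), with mice (columns, replicate numbers) ordered by their median rank. In the WTD and atorvastatin groups columns run from mostly red at the left (replicate 3 and replicate 5) to mostly blue at the right (replicate 8 and replicate 7). Columns between these ends are mixed in color, and Mlxipl departs from the other genes in the WTD group.

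To measure this, log2 CPM was expressed as the deviation from the group mean and correlated between genes over 42 mice. All 45 pairs were positively correlated, with a median Pearson r of 0.78 (lowest 0.37, highest 0.95) and a median Spearman rho of 0.77. In a 2-sided permutation test of r within groups all 45 passed at an adjusted p below 0.05 (highest adjusted p = 0.0269 over 45 pairs). Leaving out the 2 mice farthest from the median of one gene of the pair left a median r of 0.72. Within groups the median r was 0.51 in chow, 0.82 in WTD and 0.89 in atorvastatin-treated mice, and the difference between groups was not tested. The tightest pair was Acly and Elovl6 (r = 0.95, rho = 0.92, adjusted p = 1.2e-05), closely followed by Acaca and Elovl6 (0.95) and by Fasn and Elovl6 (0.94). The lowest medians over the 9 pairs of a gene were those of Mlxipl (0.61) and Pnpla3 (0.63). For Mlxipl the median within groups was 0.29 in chow, 0.45 in WTD and 0.78 in atorvastatin-treated mice. The weakest pair was Scd1 and Pnpla3 (r = 0.37, adjusted p = 0.0269, r = 0.28 without 2 mice), which had an r of -0.12 in chow and 0.71 and 0.72 in the WTD groups.

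**Figure D5:**
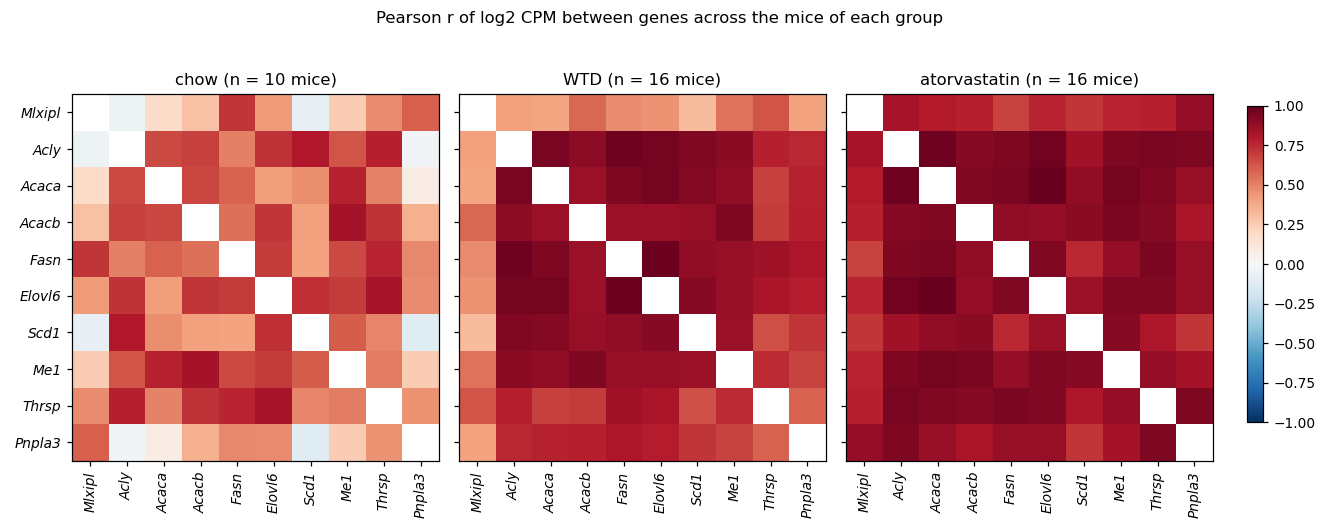
Pearson r of log2 CPM between each pair of the 10 genes (rows and columns, color scale from -1 to 1, diagonal left blank) across the mice of each group. The median r is 0.51 in chow (10 mice), 0.82 in WTD (16 mice) and 0.89 in atorvastatin-treated mice (16 mice), and the row of Mlxipl is paler than the others in WTD.

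The deviations were then set against 4 other measures of the same livers, with p-values of 2-sided permutation tests adjusted over 40 relations and judged at 0.05. With the summed hepatocyte markers all 10 genes were positively correlated (r from 0.30 for Fasn to 0.66 for Mlxipl), and 4 relations passed for r and 9 for rho. Other genes were not set against these markers, so these counts do not show a trait particular to the 10 genes. For Mlxipl r was 0.66 and rho 0.65 (adjusted p = 0.0016 and 0.0014, r = 0.58 without the 2 farthest mice), and for Acacb r was 0.55 and rho 0.62 (adjusted p = 0.0134 and 0.0014, r = 0.53 without 2 mice). With the summed macrophage markers r ranged from -0.37 to -0.10 and passed for 0 genes (lowest adjusted p = 0.08), although rho passed for Scd1 (-0.40, adjusted p = 0.0472). With a score of the circadian clock genes r ranged from -0.17 to 0.31 (lowest adjusted p = 0.16), and with the share of low genes missing from a library from -0.24 to -0.00487 (lowest adjusted p = 0.20). The part of hepatocyte RNA content in the shared spread was not tested.

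Outside the 10 genes, the transcripts whose deviations followed the mean of their standardized deviations most closely among 10921 genes were Acss2 (r = 0.95), Pygl (0.91), Adipor2 (0.90), Acsl5 (0.89) and Sc5d (0.89), given as a description over 42 mice. Acss2 makes acetyl-CoA from acetate, Pygl is liver glycogen phosphorylase, Adipor2 an adiponectin receptor, Acsl5 a long-chain acyl-CoA synthetase and Sc5d an enzyme of cholesterol synthesis. Sc5d fell by 1.11 on WTD (SE 0.15, edgeR adjusted p = 2.1e-08) and rose by 0.76 with atorvastatin (SE 0.13, adjusted p = 8e-05). Pygl was not called on WTD (log2 fold change 0.07, adjusted p = 0.65) and rose by 0.45 with atorvastatin (SE 0.09, adjusted p = 0.00061). For single genes, the closest transcript was Acss2 for Acly, Acaca, Acacb, Elovl6 and Thrsp (r from 0.87 to 0.93), Pklr for Fasn (0.88), Acsl5 for Scd1 (0.80) and Haao for Mlxipl (0.90). Pnpla3 was closest to Gm49513 (0.89), the gene with which it shares exon bases.

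Of 17 genes that bring carbohydrate into the pathway or are ChREBP targets outside lipogenesis, 4 were called higher and 4 lower on WTD, near the 17.5% and 16.0% of all tested genes. With atorvastatin 6 were called higher and 1 lower, against 4.84% and 2.26% of all tested genes. Pklr, the liver pyruvate kinase and a classical ChREBP target, averaged 207 CPM in chow, 424 CPM in WTD and 743 CPM in atorvastatin-treated mice, and rose by 1.04 on WTD (SE 0.22, edgeR adjusted p = 0.00018) and by a further 0.81 with atorvastatin (SE 0.19, adjusted p = 0.0027). Pfkl, liver phosphofructokinase, rose by 0.56 on WTD (SE 0.07, adjusted p = 5.4e-09) and changed by -0.32 with atorvastatin (SE 0.06, adjusted p = 0.00026). Tm6sf2, which takes part in the lipidation of very-low-density lipoprotein, fell by 0.72 on WTD (SE 0.11, adjusted p = 1.6e-07) and rose by 0.46 with atorvastatin (SE 0.10, adjusted p = 0.00053).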

How the data were processed

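Liver RNA of 42 mice was sequenced in pairs of reads. Per the labels and the study's methods, the authors trimmed reads with Trimmomatic, aligned them to GRCm38 with STAR (2.5 in the submitters' processing notes) and counted them per gene with HTSeq 0.6.1p1. The deposited counts are whole numbers per gene, not normalized; 12.1% to 13.8% of tabulated pairs fall on the summary lines (pairs in no gene, in several genes or aligned to several places) and were left out. Groups came from the sample labels. Gene names and positions came from GENCODE vM21 (54409 of 54446 identifiers matched).

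Counts of all 42 mice were fitted together for the 3 groups in edgeR 4.0.16 (R 4.3.3): genes were kept by filterByExpr (minimum count 10, minimum total 15), libraries scaled by TMM, and groups compared by the robust quasi-likelihood test with Benjamini-Hochberg adjustment over 15574 genes at 0.01. Log2 CPM used a prior count of 2. Standard errors were derived from the log2 fold change and the F statistic. The fit was tested on simulated data. Ratios and correlations used 2-sided tests with 100000 permutations of mice, within groups for correlations, and passed at an adjusted p below 0.05. Intervals reflect the spread between mice. The lowest count in any library was 0 for Pnpla3 and 1060 among the other 9 genes.

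The members and gene lists were chosen with earlier results of these data known. Named besides the 10 genes are, per list, comparison and direction, the called gene with the smallest p, and the genes with the most similar deviations; Mlx was named after its values were seen, and the relations to hepatocyte and macrophage markers were added after seeing the data. Alternatives tried were DESeq2 1.42.0, limma-voom (limma 3.58.1), other scalings, filters and thresholds, covariates, and leaving out libraries. Acsf3 and Per3 are listed at 0 in all mice, and Trf, with 63.5% of its exon bases shared with another gene, was not tested. Some genes that the rule for named genes selects are not reported here.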

Additional observations from a re-analysis of the deposited data

How the results depend on the processing

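On WTD against chow, 2 genes were called. The count was 4 with DESeq2, with no robust estimation and at an adjusted p below 0.05, 8 when scaled to hepatocyte markers (8 higher, 0 lower), and 1 without the 20 most abundant genes, which removes Scd1. The hepatocyte scaling moved the median log2 fold change of the 10 genes from 0.28 to 1.11, that is 0.21 above the median of all genes against 0.26 before. For atorvastatin against WTD the count of 8 became 4 under that scaling and 5 without the 9 libraries with missing low genes. Under the hepatocyte scaling the median of the 10 genes was 1.04 above that of all genes, against 1.09 before. The count for atorvastatin against chow stayed between 8 and 9 under every alternative; limma-voom lost Pnpla3. Leaving out 1 mouse gave counts of 2 to 3, 7 to 9 and 9 in the 3 comparisons, and medians of 0.12 to 0.36, 1.02 to 1.23 and 1.42 to 1.60. The cause of the other shifts was not tested.

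Several fold changes turned sign, those of Acly, Me1 and Acacb from values near 0. Acly on WTD became -0.065 and Me1 -0.035 with limma-voom. Acacb on WTD became -0.16 with limma-voom, -0.0018 with upper-quartile scaling, -8.2e-05 without the 20 most abundant genes, -0.095 without the 9 libraries and -0.0081 with the missed share as covariate. Scaling to hepatocyte markers turned Thrsp on WTD from -0.30 to 0.51 and Scd1 with atorvastatin from 0.43 to -0.048. That scaling also moved the median of all genes. Relative to that median Thrsp lay at -0.33 before and -0.39 after, and Scd1 at 0.43 before and 0.39 after. Leaving out 1 mouse gave a range of -0.10 to 0.19 for Acly on WTD and -0.088 to 0.075 for Acacb. The Scd1/Fasn ratio between the WTD groups was -0.58 without the 9 libraries (adjusted p = 0.0519).

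The Fasn call with atorvastatin was lost without any 1 of WTD replicates 2, 7 and 13 and atorvastatin replicates 5, 6, 8, 10, 11 and 12 (log2 fold change 1.04 to 1.10, adjusted p up to 0.0136). The Thrsp difference was called without any 1 of WTD replicates 1, 3, 14 and 15 and atorvastatin replicates 1, 2, 3, 7 and 15 (1.14 to 1.30). Acaca on WTD was called without WTD replicate 8, WTD replicate 9 or atorvastatin replicate 7 (0.65 to 0.71). No paired analysis was possible because the mouse numbers in the labels name different animals and the groups share none of these animals. That the animals differ follows from the separately fed groups of the study design and not from the numbers, some of which occur in both chow and WTD.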
